A study of Homo sapiens with 12 samples.

Results

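Chromatin retrieved by the odd-numbered probes against the long non-coding RNA SLEAR was compared with chromatin retrieved by the even-numbered probes against the same RNA, in Jurkat cells, a long-established T-cell line from a human leukaemia. The members are the 3 samples titled odd and the 3 samples titled even, 6 of the 12 samples of the series, each with its own list of peaks. Of the 599924 peaks in these 6 lists, the 597927 on chromosomes 1 to 22 and X were kept. The other 2 groups of the series, an input and a control with lacZ probes, were not used here. Every sample came from Jurkat cells that stably expressed SLEAR and were grown in RPMI-1640 with fetal bovine serum. The probe set is the only difference between the odd and the even groups that the labels name. No sample in the comparison lacks the introduced RNA, and all positions are those of the hg19 build. The labels do not say that the replicates of a set came from separate cultures, so p-values here reflect no more than how far these libraries differ among themselves, and that spread may be technical.

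In chromatin isolation by RNA purification (ChIRP-seq), cells are crosslinked, the chromatin is sheared, and biotinylated DNA oligonucleotides complementary to one RNA pull that RNA down with the DNA fixed to it. The oligonucleotides that tile the RNA are numbered along it and divided into an odd and an even pool, which have no oligonucleotide in common. Chromatin held by the RNA is retrieved by both pools, while DNA that an oligonucleotide meets through its own sequence is retrieved by the pool that holds it. Whether the pools return the same peaks is therefore the internal check of the method. A peak is a stretch of genome where fragments pile up over the local background, its summit is the highest point, and its pileup is the number of fragments covering the summit. Pileup is not scaled to sequencing depth. The lists give no read totals, so the depth of each library is unknown and pileup was compared between lists mainly by rank within a list.

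The odd and the even lists resembled each other in how many peaks they held and in what those peaks looked like. The odd lists held 66336, 105957 and 117145 peaks in replicates 1, 2 and 3, and the even lists held 94119, 90179 and 124191. The odd replicate 1 list was the shortest and the even replicate 3 list the longest, and the sets overlapped. The median peak length was 394, 362 and 348 bases in the odd lists and 409, 400 and 366 bases in the even lists. The median pileup was 26, 32 and 20 fragments in the odd lists and 30, 32 and 20 in the even lists. Both sets thus had their lowest median pileup in replicate 3, the replicate with the most peaks. Neighbouring summits lay a median of 27730, 17270 and 16189 bases apart in the odd lists and 19705, 20782.5 and 15358.5 bases apart in the even lists. A further summit of the same list lay within 2 kb for 7.12%, 11.4% and 12.1% of odd summits and for 9.35%, 8.89% and 11.9% of even summits.

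None of these measures separated the sets. The even lists had 1.09-fold as many peaks as the odd lists, a log2 difference of 0.12 ± 0.29 (SE, n = 3 against 3, exact permutation p = 0.8, two-sided). Median length was higher by 0.09 ± 0.07 on the log2 scale in the even lists (exact permutation p = 0.2), and median pileup by 0.07 ± 0.29 (exact permutation p = 1). The ratio of the 99th percentile to the median of pileup, a measure of how far the strongest peaks stand above the rest, was 11.2 ± 2.83 in the odd lists and 11.2 ± 1.77 in the even lists (SD, n = 3, exact permutation p = 1). The median spacing differed by -0.10 ± 0.28 on the log2 scale (exact permutation p = 0.8) and the share of summits with a close neighbour by 0.01 ± 0.28 (exact permutation p = 1). After Benjamini-Hochberg adjustment over these 6 measures, each exact p was 1. With 3 lists against 3 the smallest exact p is 0.1, so this design cannot reach 0.05 for a single measure, and similar values do not show that the sets are alike. Without replicate 1 of both sets, the log2 differences in number of peaks, in the 99th percentile over the median, in spacing and in close neighbours changed sign, to -0.074, -0.064, 0.096 and -0.19.

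**Figure D1:**
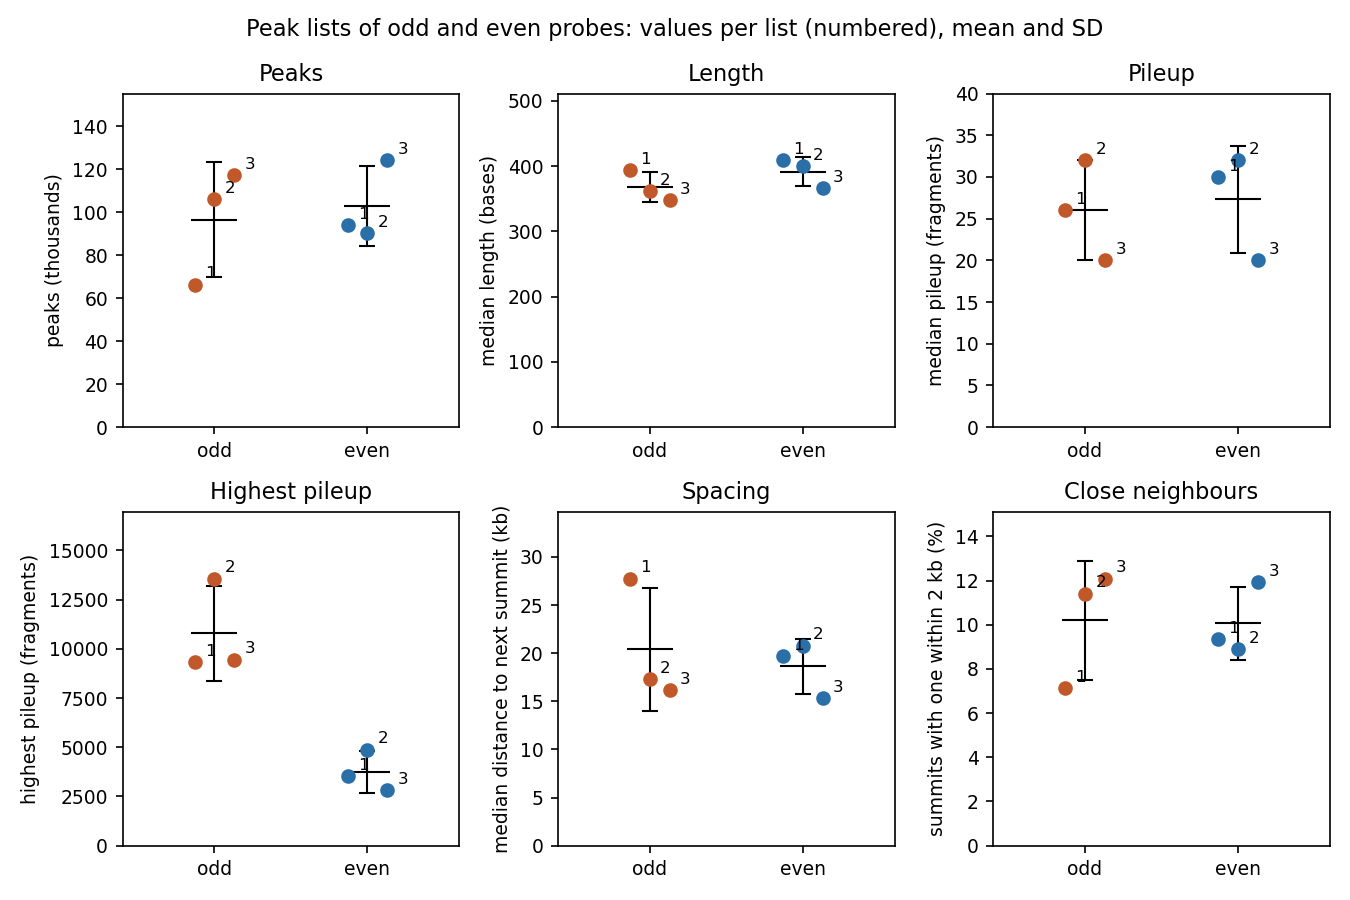
Properties of each list, with odd lists in orange and even lists in blue; points are lists, numbered by replicate, the short horizontal line is the mean of the set and the bar is 1 SD. The sets overlap in number, length, pileup, spacing and close neighbours, while the highest pileup lies between 9338 and 13562 fragments in the odd lists and between 2825 and 4880 in the even lists.

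Apart from these measures, the highest single pileup was one property in which the sets did not overlap. It was 9338, 13562 and 9451 fragments in the odd lists and 3527, 4880 and 2825 in the even lists, a difference that was looked at after the values were seen and was not tested. The 1% of peaks with the most fragments held 9.67% ± 1.07 of all summed pileup in the odd lists and 8.95% ± 1.04 in the even lists (SD, n = 3), so apart from the extreme the weight of the strongest peaks was close. Longer peaks also had more fragments in both sets. Peaks in the highest decile of pileup had a median length of 740 to 767 bases in the odd lists and 751 to 782 bases in the even lists, against 246 to 291 and 257 to 282 bases in the lowest decile. Length and pileup were correlated across the peaks of a list with a Spearman rho of 0.75 ± 0.03 in the odd and 0.78 ± 0.02 in the even lists (SD, n = 3), a description over peaks that share a library.

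Agreement between the probe sets was asked peak by peak. Peaks of each list were ordered by pileup and cut into 10 equal classes, the deciles, of which decile 1 holds the highest. A peak was counted as coinciding when a list of the other set had a summit within 100 bases of its own, and shares were averaged over the 3 lists of the other set. Across whole lists, 1.64% ± 0.11 of odd peaks and 1.54% ± 0.15 of even peaks coincided with the other set (SD, n = 3). Between lists of one set the shares were 72.8% ± 14.7 for odd and 75.2% ± 10.3 for even peaks. Coinciding summits were therefore frequent among replicates of a probe set and infrequent between probe sets.

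The share was raised in decile 1 and nearly flat below it. In decile 1, 6.96%, 4.81% and 4.37% of peaks of the odd lists and 3.04%, 3.29% and 2.59% of peaks of the even lists coincided with the other set. In decile 2 the shares had dropped to between 1.07% and 1.31% in all 6 lists. From there to decile 10 every single value lay between 0.915% and 1.85%, and decile 10 itself held 1.39%, 1.78% and 1.39% in the odd lists and 1.48%, 1.85% and 1.20% in the even lists. Decile 1 exceeded decile 10 in 6 of 6 lists, by a mean of 2.66 ± 1.61 percentage points (SD over the 6 lists). Within a set the course was another one: 99.5% to 99.7% of decile 1 coincided with the other lists of the set, and the share fell with each decile to between 10.7% and 51.6% in decile 10.

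**Figure D2:**
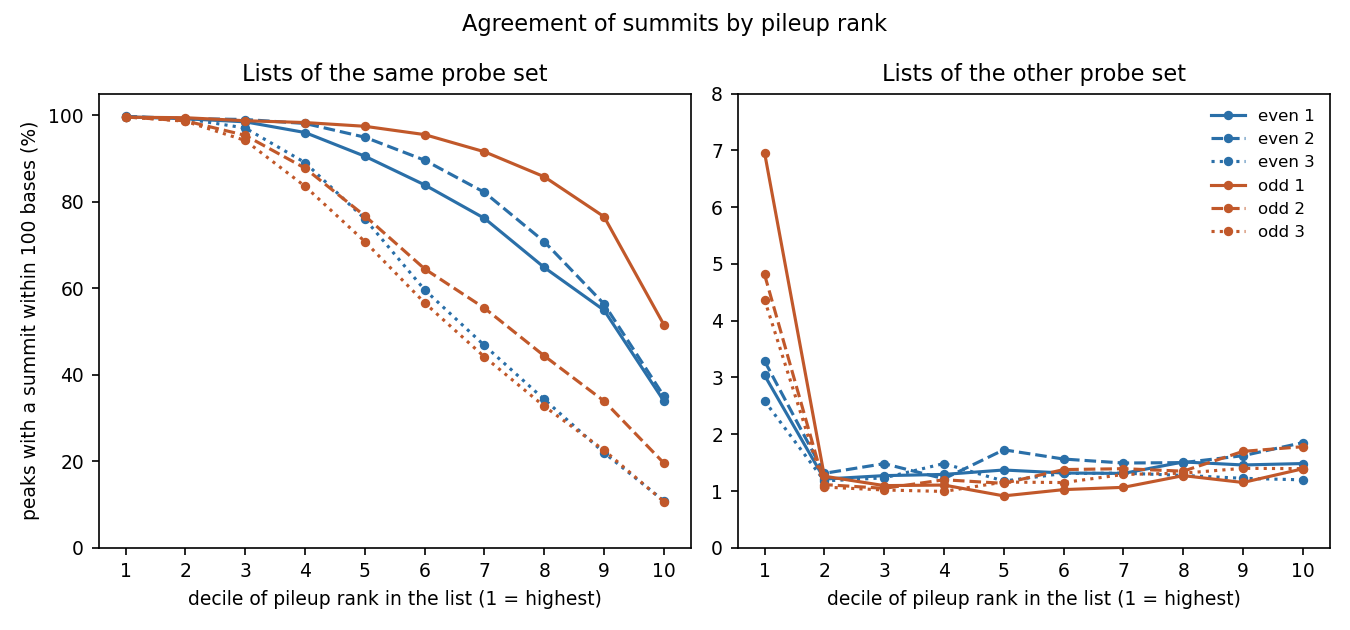
Share of peaks with a summit within 100 bases in another list, against the decile of pileup rank, for each of the 6 lists; the left panel sets a list against the other lists of its probe set and the right panel against the lists of the other set, with different vertical scales. Within a set the share declines from above 99% to between 10.7% and 51.6%, whereas between sets only decile 1 stands up, at 2.59% to 6.96%.

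In decile 1 the odd lists all lay above the even lists, with means of 5.38% ± 1.38 and 2.97% ± 0.36 (SD, n = 3), a ratio of 1.78. The exact permutation p was 0.1, the smallest this design allows, and 0.2 after adjustment over the 4 comparisons of this kind, so the difference is not established. In decile 10 the means were 1.52% ± 0.22 and 1.51% ± 0.33 (exact permutation p = 1). Because a longer list offers more summits to meet, the same pairs were also counted against their neighbourhood: pairs of an odd and an even summit within 100 bases, per base, over pairs 2 to 5 kb apart, per base. On this scale 1 means that near pairs are as frequent as pairs a few kb away. Decile 1 stood at 8.24, 5.76 and 5.33 in the odd lists and 3.97, 4.32 and 3.41 in the even lists, again without overlap between the sets (exact permutation p = 0.1, adjusted 0.2). Decile 2 stood at 1.32 to 1.70 and decile 10 at 1.80 to 2.70 over the 6 lists, so decile 10 lay above decile 2 in each list on this scale.

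The agreement in decile 1 came from its uppermost peaks. Among the top 0.1% of each list, 66 to 124 peaks, 43.6% ± 3.63 of odd and 34.8% ± 4.90 of even peaks coincided with the other set (SD, n = 3). Between 0.1% and 0.5% the shares were 34.0% ± 4.87 and 18.9% ± 3.997, and between 0.5% and 1% they were 20.6% ± 4.79 and 7.91% ± 1.10. They had fallen to 3.07% ± 1.37 and 1.44% ± 0.26 between 2% and 5%, and to 1.46% ± 0.35 and 1.31% ± 0.16 between 5% and 10%, which is the level of the rest of the list. Even at the very top many peaks were seen with one set only. In the top 0.1%, 48.5%, 43.4% and 50.4% of odd peaks and 56.4%, 42.2% and 49.2% of even peaks had no coinciding summit in any of the 3 lists of the other set.

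A strong peak that coincided with the other set met a partner of any rank, and for even peaks mostly one of low rank. For the top 1% of each odd list set against each even list, 9 pairs of lists in all, 21.9% to 36.5% of peaks had a coinciding peak, called here its partner. A median of 55.0% of these partners (49.2% to 61.3%) ranked below the median pileup of their own list, and a median of 8.53% ranked in its top 10%. By construction these shares are 50% and 10% over all peaks of a list, so partners of strong odd peaks were ranked much like the list as a whole, and in 2 of the 9 pairs of lists fewer than 50% lay below the median. For the top 1% of the even lists set against the odd lists, 5.31% to 25.6% had a partner, of which a median of 80.5% (76.3% to 89.7%) ranked below the median and 2.60% in the top 10%, so these partners lay lower than the list as a whole. The partner's pileup was a median of 7.02% of the strong peak's pileup in the first direction (2.92% to 10.9%) and 3.32% in the second (1.98% to 6.68%). These pairs of lists share lists with each other, so the ranges describe them and are not independent repeats. Within a set, in contrast, partners of the top 1% ranked in the top 10% in 99.9% to 100% of cases over the pairs of lists, and none ranked below the median.

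The number of peaks that were strong in both sets stayed small whichever length of list was taken. Of the 100 peaks with the highest pileup, a mean of 2.11% (2% to 3% over 9 pairs of lists) coincided between an odd and an even list, against 77.3% between odd lists and 62.7% between even lists. Of the top 1000 it was 0.356% between the sets (0.3% to 0.5%), against 82.7% and 76.6% within them. Of the top 10000 it was 0.349% (0.27% to 0.44%), against 86.1% and 83.1%. The readings of agreement thus diverge: 28.2% ± 3.98 of the top 1% of odd peaks and 15% ± 2.19 of the top 1% of even peaks (SD, n = 3) had some peak of the other set at their summit, but few had a strong one.

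**Figure D3:**
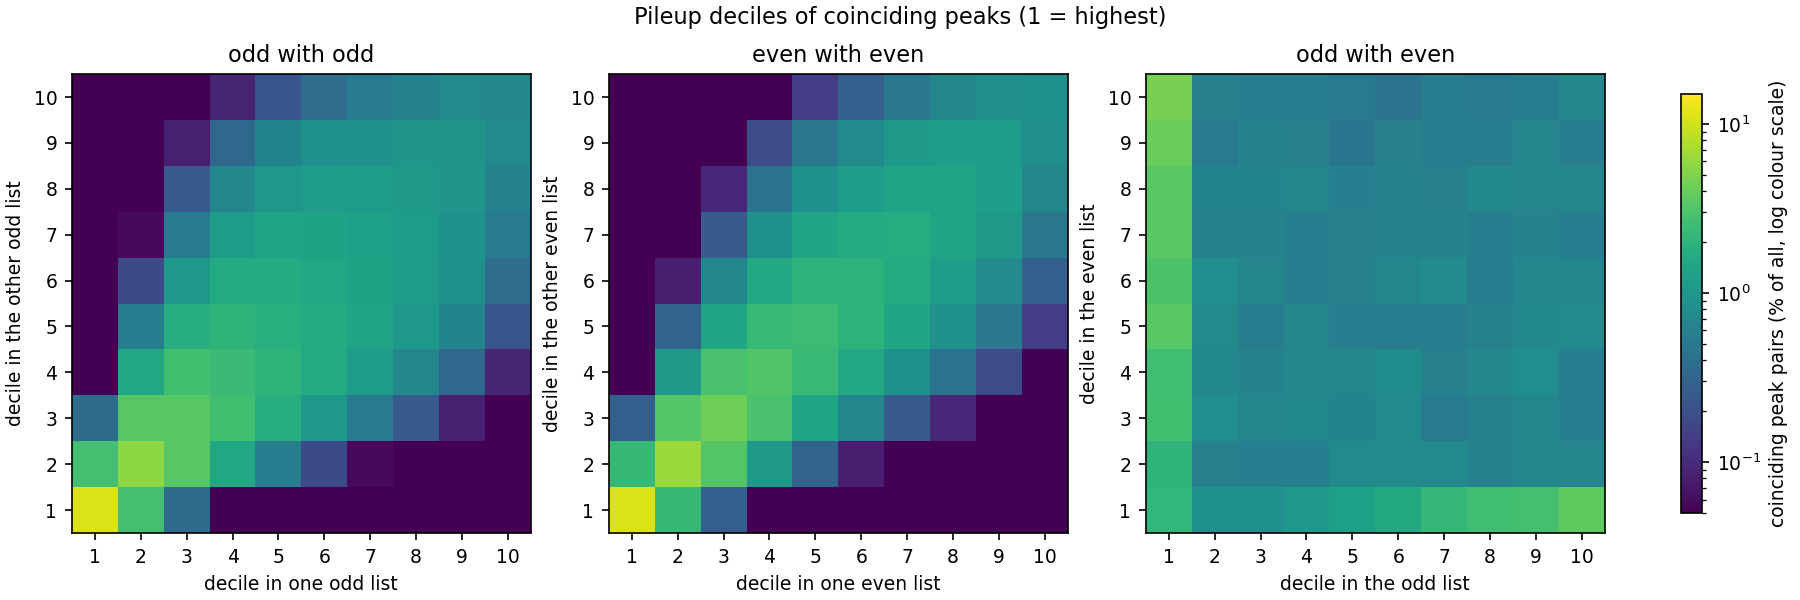
Coinciding peak pairs by the decile of pileup of each partner, as a percentage of all coinciding pairs of that kind, averaged over pairs of lists (log colour scale; decile 1 is the highest); the panels set odd with odd, even with even and odd with even lists. Within a set pairs follow the diagonal, while between sets they fill the edges where one partner is in decile 1, reaching 4.66% for decile 1 of the odd and decile 10 of the even list against 2.17% where both are in decile 1.

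The map of coinciding pairs covers all ranks. An odd and an even list shared a mean of 1570 coinciding pairs, against 67594 between odd lists and 76073 between even lists. Within a set the partners' deciles were equal or adjacent for 63.5% of odd and 70.2% of even pairs, but for 21.2% of pairs between the sets. Of the pairs between sets, 18.7% joined decile 1 of the odd list to the lower 50% of the even list and 12.9% joined decile 1 of the even list to the lower 50% of the odd list, while 2.17% joined deciles 1 of both. Among pairs with neither partner in decile 1, the percentage for any combination of deciles ranged from 0.417% to 0.821% with no visible diagonal.

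Coinciding summits lay close together. For the top 1% of odd peaks, summits of the even lists within 25 bases were 56.5 times as frequent, per base, as summits 2 to 5 kb away, and the ratio fell to 22.1 at 51 to 75 bases, 10.7 at 76 to 100 bases and 1.55 at 151 to 200 bases. For the top 1% of even peaks the ratio was 32.5 within 25 bases, 13.8 at 51 to 75 bases, 9.28 at 76 to 100 bases and 2.01 at 151 to 200 bases. Peaks ranked between 1% and 10% gave 4.61 (odd) and 2.89 (even) within 25 bases. The classes below were lower for odd peaks, at 1.61 for ranks of 10% to 50% and 2.20 for ranks of 50% to 100%, and similar for even peaks, at 2.24 and 2.59. Proximity beyond the neighbourhood was thus seen in every rank class at distances under about 200 bases, and within 100 bases it was largest for the top 1%. Counts were pooled over the 9 pairs of lists here, so no spread is given.

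**Figure D4:**
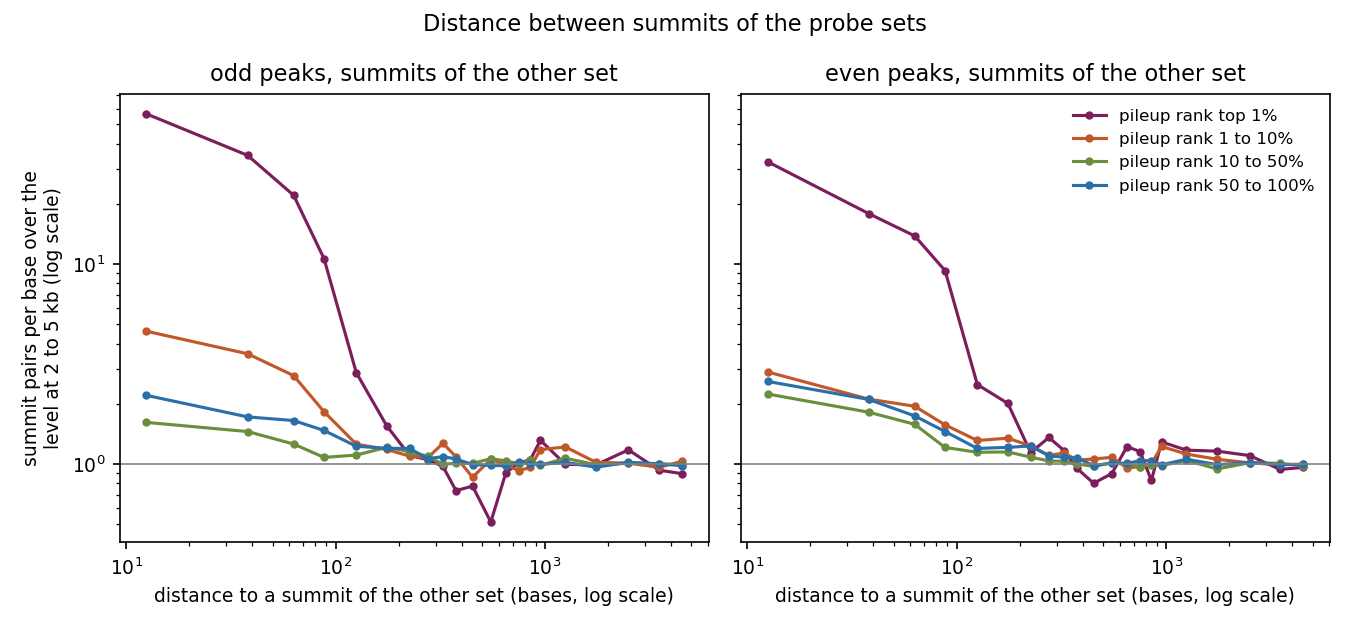
Frequency of summits of the other probe set around a summit, per base and relative to the level at 2 to 5 kb, against distance (both axes logarithmic), for 4 classes of pileup rank; the left panel centres on odd peaks and the right panel on even peaks. The top 1% reaches 56.5 (odd) and 32.5 (even) within 25 bases, and all classes approach the level of 1 beyond about 200 bases.

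Merging overlapping peaks of the 6 lists gave 273501 regions, of which 2458 held a peak of every list. That number was 4006 when peaks within 500 bases were merged and 838 when the stronger part of each list alone was used. A peak in all 3 odd lists and no even list was found in 54104 regions, and a peak in all 3 even lists and no odd list in 64307. The regions of all 6 lists were 4.2% of the 58513 regions in every odd list and 3.55% of the 69244 in every even list. Sharing, counted here by an overlap of at least 1 base, was more frequent among strong regions. Stronger peaks were also longer, and the part of length in this was not tested. Of the 617 regions in the top 1% of every odd list, 315 (51.1%) had no peak in any even list and 190 (30.8%) had one in all 3. Of the 665 regions in the top 1% of every even list, 402 (60.5%) had no peak in any odd list and 81 (12.2%) had one in all 3. Regions strong in both sets were nevertheless few, with 57 in the top 10% of all 6 lists and 4 in the top 1% of all 6.

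The 4 regions that ranked in the top 1% of all 6 lists lay on chromosomes 8 and 17. The first, chr8:102086950-102088916, had a pileup of 1121, 3238 and 1559 fragments in the odd lists and 2221, 2955 and 1626 in the even lists, with summits of the sets 47 bases apart. The second, chr8:102063875-102065444, lies at lower coordinates on the same arm and had 760, 2107 and 968 fragments in the odd and 1685, 2112 and 1114 in the even lists, with mean summits 1 base apart. In both, the ranges of the sets overlapped, and replicate 2 was the highest list of each set. The third, chr17:43452803-43453746, had 263, 762 and 317 fragments in the odd and 559, 719 and 366 in the even lists. The fourth, chr8:101421486-101422644, had 251, 634 and 242 in the odd and 418, 780 and 338 in the even lists, with summits 281 bases apart. Of these 4, 3 therefore lay within one stretch of the long arm of chromosome 8. The lists do not name genes, and no gene annotation of hg19 was used. The gene of SLEAR is itself on chromosome 8, and its position relative to these regions was not examined. Whether the probes retrieved DNA of that gene directly was not tested, so such signal cannot be told apart here from chromatin held by the RNA.

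The next regions by mean rank over the 6 lists were uneven between the sets. At chr13:19188278-19189875, pileup was 643, 1427 and 533 in the odd and 262, 343 and 215 in the even lists, an odd to even ratio of 3.17 that exceeded 1 in each replicate number (2.45, 4.16 and 2.48). Ratios of 2.58, 2.83 and 2.76 were found at chr15:20974831-20976334, chr18:14444193-14445698 and chr15:21981505-21982986. These 4 all lie near the centromere of their chromosome. The reverse was seen at chr2:20184616-20185662, with 188, 285 and 236 fragments in the odd and 1308, 1999 and 1421 in the even lists, a ratio of 0.15. The last of the 10, chr10:115869983-115871251, was balanced at 193, 465 and 247 against 301, 467 and 246. Raw pileup moves with depth, and these ratios carry no test.

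The strongest regions of a single set were of another kind. All 5 leading regions found in the odd lists alone lay between positions 46387096 and 46425035 of chromosome 16, next to its centromere. The leading one, chr16:46404755-46405831, had 9338, 13562 and 9451 fragments in the odd lists, the highest pileup of each list, and no peak in an even list. The others had 8665, 12646 and 8952 (chr16:46392802-46393898), 4702, 7168 and 4852 (chr16:46412691-46413518), 3527, 5710 and 3593 (chr16:46423830-46425035), and 3189, 4610 and 3418 fragments (chr16:46387096-46388133). Their fold enrichment over the local background, a value of the authors' peak caller, was moderate for such heights, between 10.0 and 23.4, whereas the top shared region on chromosome 8 had folds of 284 to 1016 in the odd and 467 to 822 in the even lists. The background that the caller set against these chromosome 16 peaks was thus high as well.

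Among the regions found in the even lists alone, the first 2 also lay next to centromeres. At chr6:58777687-58778295 pileup was 3527, 3420 and 2825 with folds of 3.28 to 5.40, and at chr18:18518868-18519416 it was 2314, 2354 and 1800 with folds of 5.49 to 8.88. The other 3 had fewer fragments and larger folds. At chr4:66675-67621, near the end of the short arm, pileup was 1514, 2205 and 1094 with folds of 225 to 410. At chr7:1900700-1901967 it was 1195, 1562 and 606 with folds of 209 to 356, and at chr9:68426771-68427510, in the pericentromeric part of the long arm, it was 1116, 1264 and 887 with folds of 101 to 155. None of these had a peak in an odd list, at pileups that placed them above the 99.9th percentile of every even list. Repeats near centromeres are assembled incompletely in hg19; whether read placement bears on these regions was not tested.

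Peak density along the chromosomes was compared in 1 Mb windows, with each peak placed by its summit and counts taken relative to the list's total. Of 2888 windows with a peak, 2876 had a mean of at least 5 peaks over the 6 lists and were tested. By limma, 1124 windows, 39.1%, differed between the sets at an adjusted p below 0.05. The even lists were denser in 566 windows (19.7%) and the odd lists in 558 (19.4%). The differences were mostly small, with 242 windows beyond 1.5-fold and 21 beyond 2-fold. A window held a median of 34 peaks per list. The median standard error from the replicates was 0.11 on the log2 scale, whereas the counting error of that many peaks, computed as if each set were 1 list of its mean size, had a median of 0.34. The SD of the log2 differences over all windows was 0.34. Asking also that a difference lie outside its 95% counting interval, a criterion chosen after the data were seen, left 107 windows (3.72%). Counting error alone leaves some windows outside a 95% interval, and 3.72% is no more than that share. The interval treats each set as 1 list, so it cannot decide whether counting error accounts for the differences, and this was not tested. Of the 107 windows, 55 were denser in the even lists (1.91% of all windows) and 52 in the odd lists (1.81%).

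**Figure D5:**
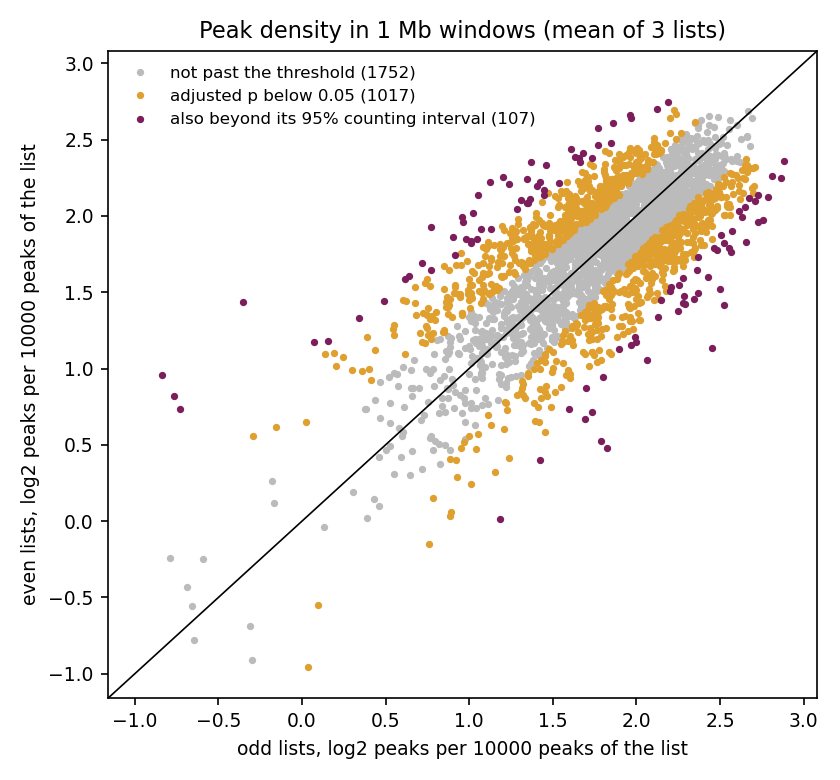
Peaks per 10000 peaks of a list in 1 Mb windows (log2), mean of the 3 odd lists against mean of the 3 even lists, with the diagonal drawn; each point is a window, coloured by whether it passed the limma threshold and by whether its difference also lay outside its 95% counting interval. The 107 windows beyond both criteria lie on both sides of the diagonal, 55 above and 52 below. Their share of 3.72% is no more than counting error alone would leave outside a 95% interval.

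The windows with the largest difference towards the even probes adjoined centromeres. The window chr11:54000001-55000000 held 3, 5 and 5 peaks in the odd lists and 15, 19 and 23 in the even lists, a log2 difference of 1.79 ± 0.24 (SE, limma adjusted p = 1.14e-09). The SE and p-values of single windows reflect the spread among replicates only. The counting error of this window, computed as above, was larger, at 0.70. At chrX:58000001-59000000 the counts were 5, 5 and 10 against 23, 24 and 34 (1.79 ± 0.20, limma adjusted p = 4.81e-12). The windows chr5:46000001-47000000, with 2, 6 and 7 against 17, 17 and 17 peaks, and chr18:18000001-19000000, with 4, 5 and 5 against 14, 13 and 22, differed by 1.59 ± 0.24 and 1.46 ± 0.25. Another window beside a centromere, chr8:43000001-44000000, held 12, 14 and 20 against 34, 35 and 45 peaks (1.16 ± 0.14). Beyond these, chr18:64000001-65000000, chr1:179000001-180000000 and chr13:33000001-34000000, which are not next to centromeres, differed by 1.10, 1.10 and 1.09. The window on chromosome 1 held 14, 21 and 25 peaks in the odd and 45, 40 and 56 in the even lists.

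Towards the odd probes the largest difference was at chr16:46000001-47000000, the window that holds the strongest odd regions, with 25, 36 and 37 peaks in the odd and 12, 10 and 19 in the even lists (-1.34 ± 0.16, limma adjusted p = 9.00e-12). At chr6:166000001-167000000, near the end of the long arm, the counts were 34, 61 and 61 against 22, 17 and 26 (-1.32 ± 0.11, limma adjusted p = 1.55e-18). The counting errors of these windows on chromosomes 16 and 6 were 0.45 and 0.36, again larger than the SE from the replicates. The window chr6:29000001-30000000, in the major histocompatibility region, held 40, 57 and 65 against 25, 21 and 34 peaks (-1.11 ± 0.10, limma adjusted p = 3.41e-16). The remaining 5 windows named by the rule were chr8:39000001-40000000, chr10:51000001-52000000, chr18:27000001-28000000, chr9:68000001-69000000 and chr4:114000001-115000000, with log2 differences of -1.27, -1.17, -1.03, -1.02 and -1.02. The window on chromosome 9 was denser in the odd lists although the strong even region described above lies in it, so density and pileup need not point the same way. In each of the 16 named windows the 3 relative densities of one set lay outside the 3 of the other, as the rule required.

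How alike the lists looked depended on the scale. In 0.25 Mb windows, log density was correlated between odd lists with a mean Pearson r of 0.81, between even lists with 0.83 and between an odd and an even list with 0.39 (11418 windows). In 1 Mb windows the values were 0.91, 0.92 and 0.70 (2876 windows), and in 5 Mb windows they were 0.97, 0.98 and 0.93 (598 windows). In 5 Mb windows the lowest pair of lists between the sets stood at 0.91 and the lowest pair within a set at 0.96. These are descriptions over windows that share base composition, mappability and copy number, and the windows are not replicates. Smaller windows hold fewer peaks and so carry a larger counting error, and the 0.25 Mb windows were kept from a lower mean count. The part of counting error in the rise with window size was not tested. In 5 Mb windows the Spearman rho between an odd and an even list was 0.85 to 0.91, against 0.96 to 0.97 within the sets. Log density was thus correlated between the sets in large windows, although fewer than 2% of peaks had a summit of the other set within 100 bases. What lay behind this correlation was not tested.

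The shares of peaks on whole chromosomes were close. By limma, 0 of 23 chromosomes (0%) differed between the sets at an adjusted p below 0.05, and 4 (17.4%) had an unadjusted p below 0.05. The largest difference towards the even lists was on chromosome 3, with 6.63%, 6.70% and 6.92% of peaks in the odd and 7.04%, 7.02% and 7.08% in the even lists (log2 difference 0.06 ± 0.02 SE, limma adjusted p = 0.219). Chromosomes 5 and 4 followed, with 0.06 ± 0.02 and 0.04 ± 0.04. The largest difference towards the odd lists was on chromosome 16, with 3.46%, 3.45% and 3.27% against 3.30%, 3.18% and 3.08% (-0.09 ± 0.03 SE, limma adjusted p = 0.268), followed by chromosomes 21 and 19 at -0.09 ± 0.04 and -0.08 ± 0.05. The shares of the sets did not overlap on chromosomes 3, 5 and 7, higher in the even lists, and on chromosomes 2 and 21, higher in the odd lists, and they overlapped on the other 18, chromosome 16 included. In both sets the gene-dense chromosome 19 had its lowest share, 2.24% and 2.16%, and chromosome X its highest, 3.59% and 3.43%, in replicate 3, the replicate with the longest lists. List length was varied only by cutting lists to equal length, which also drops weaker peaks, so its own part in the chromosome comparison was not tested. With the stronger part of each list 4 chromosomes passed the threshold, with lists of equal length 4, and without odd replicate 3 chromosome 3 alone. More chromosomes passed with the replicate number as a block, and that count is given in the closing section.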

How the data were processed

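ChIRP-seq was performed on Jurkat cells, and 1 peak list per sample was used for 3 odd and 3 even samples. Per the submitters' processing notes, FastQC, Bowtie2 and the hg19 build were used. The columns follow the MACS2 layout; for the caller itself, its settings and its control, nothing is given in the sources used here. Per the file headers, the deposited values per peak are the pileup (a coverage signal, in whole fragments), the −log10 of the p-value, the −log10 of the q-value and the fold enrichment, a ratio to the local background. All of them are the authors' values, called per sample. Every list ends at a q-value just below 0.05, read from its −log10 column as deposited.

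Only the lists titled odd and even and chromosomes 1 to 22 and X were kept. The stronger part of a list, used as an alternative, is its peaks at or above the list's median −log10 q as deposited. Ties in pileup rank were broken by −log10 p and then by position. List measures were compared by exact permutation tests over the 20 arrangements of 3 against 3 lists on the log2 scale, two-sided. Window densities were log2 of (peaks + 1) relative to the list's total, compared with limma 3.58.1 with a mean-variance trend in R 4.3.3, with Benjamini-Hochberg adjustment. Peak lists are not read counts, so no count model was used. Other steps used Python 3.11.15, numpy 2.4.6 and pandas 2.3.3, and the procedures were tested on simulated data. The simulated window counts were drawn independently for each list. Replicates that share most of their peaks, as those of a set do here, were not simulated for the windows. The windows named are the 8 with the largest difference in each direction among those past the threshold whose sets do not overlap. The regions named are the 10 with the highest mean pileup percentile over all 6 lists and the 5 highest of each set alone. Of the chromosomes, the 3 with the largest differences in each direction are named, as none passed. Members, measures and naming rules were chosen with earlier results of these data known. The lists of a set were no copies of each other, as at most 34 peaks of a pair had identical ends. No promoter or other sequence was used, since the sequence tables at hand are of another build.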

Additional observations from a re-analysis of the deposited data

How the results depend on the processing

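Alternatives were all sequences of the lists, the stronger part of each list, lists cut to equal length, other ranks, other distances or overlaps, other windows and scalings, and each replicate left out. Median length and median pileup kept their direction or fell to 0, with log2 differences of 0.06 to 0.11 and 0 to 0.10 when a replicate number was left out of both sets, and 0.17 and 0.19 in lists of equal length. Leaving out replicate 1 turned the log2 difference in number of peaks to -0.074 (range over the 3 replicates -0.074 to 0.29), of the 99th percentile over the median to -0.064 (-0.064 to 0.084), of spacing to 0.096 (-0.28 to 0.096) and of close neighbours to -0.19 (-0.19 to 0.19). In lists of equal length the last 3 were -0.061, 0.022 and -0.091. The rise in agreement from the bottom to the top decile was 1.84 to 2.82 percentage points under the other ranks, distances, 50% overlap and equal length, and 4.99 with an overlap of at least 1 base. It was 2.48 to 2.81 points, and the neighbourhood scale 2.73 to 3.54, with a replicate left out. The neighbourhood scale gave 1.56 to 4.45 otherwise. Regions of all 6 lists numbered 4006 when peaks within 500 bases were merged, 838 in the stronger parts and 1525 at equal length. Without a replicate, regions in all remaining lists numbered 2533 to 3662. Windows called numbered 2266 of 5702 tested at 500 kb (39.7%) and 552 of 1456 at 2 Mb (37.9%), close to the share of 39.1% at 1 Mb. They numbered 1414 of 2851 in the stronger parts (49.6%), 1532 of 2866 at equal length (53.5%), 790 to 1096 with 1 list left out (27.5% to 38.1%), and 107 when the difference also had to lie outside its 95% counting interval, an alternative chosen after seeing the data. The 16 named windows kept direction and call in all 206 values given by the other alternatives. The windows chr11:54000001-55000000 and chr5:46000001-47000000 were not among those tested in the stronger parts, so they have no value there. All 16 were picked for large differences in these same lists. Chromosomes called numbered 4 in the stronger parts, 4 at equal length, and 0 to 1 with 1 list left out. The cause of these shifts was not tested.

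Replicate numbers did not clearly pair the lists. The deviations of same-numbered odd and even lists over windows correlated at 0.10, 0.02 and 0.28, and odd replicate 2 correlated best with even replicate 1, at 0.19. Lists with different numbers correlated at -0.27 to 0.19, so odd replicate 3 with even replicate 3 was the highest pair of all. Pairing by number therefore remains undecided. With the replicate number as a block, 1236 windows and 9 chromosomes were called. For the list measures, sign flips of the 3 paired differences gave exact p from 0.25 to 1, and 0.25 is the smallest they can give.

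With 3 lists a set, an exact test of a single measure does not reach 0.05. The lists give no read totals, so absence from a list is not separable from low depth, and pileup values of different lists are not on one scale. Counts per window are small, so single windows carry the counting error given above.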
